A study of Oryctolagus cuniculus with 4 samples.

Results

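A 454-kb stretch of the unplaced rabbit sequence GL018733 held the transcript with the highest count in cells cultured with platelet-rich plasma (PRP), together with several smaller genes around it. The genes were taken by position, as those of OryCun2.0 (Ensembl release 98) lying wholly between 1737136 and 2191252 with 10 or more reads in at least 1 library. Of 29587 listed genes, 31 lay on GL018733, 8 of these in the interval, and 7 met the count minimum. The interval had been chosen by measured values, namely genes called higher with PRP that lay near each other, and the count minimum by the reads in these libraries. Their differences between the groups are therefore given below as descriptions, and where calls of the test over all genes are counted, they are no independent evidence for these genes. The gene with the lowest peak inside the minimum reached 46 reads, and the gene left outside reached 1 read.

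The cells were tendon stem/progenitor cells of New Zealand White rabbits, the dividing cells of tendon that can form new tendon cells. One group was cultured in medium without PRP (noPRP, 2 libraries) and the other in medium containing 10% (v/v) PRP (2 libraries), a preparation of plasma enriched in platelets and their growth factors. The 4 libraries held between 20100175 and 24064713 counted reads. The labels do not tell separate animals or cultures from repeat preparations, so the spread within a group may be technical. In RNA from whole cultures, fewer cells of a type and less RNA per cell cannot be told apart.

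The files list Ensembl identifiers and exon positions without gene symbols. The genes are therefore called by their exon length, and the labelled cell type could not be checked against tendon markers. The family considered for the short genes was serum amyloid A. As background, these are small secreted acute-phase proteins that circulate on high-density lipoprotein, and their genes lie close together in mammals. They are induced strongly by interleukin-1, interleukin-6 and tumour necrosis factor, in liver and, for some members, in connective tissue cells. RefSeq's annotation of a later rabbit assembly lists 8 genes between HPS5 and SAAL1, of which 4 are protein coding and 3 are pseudogenes. These 8 include SAA3 and a locus with the synonyms SAA1 and SAA2, and TPH1, SERGEF, KCNC1 and MYOD1 follow on the far side of SAAL1. That table matched 0 of the deposited identifiers, so it names none of the genes below, and whether they are serum amyloid A genes was not tested.

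Exon structure, which played no part in choosing the interval, divided the genes. The 554-base gene (ENSOCUG00000002424, 2135282 to 2139361, minus strand) had 4 exons of 59, 95, 139 and 261 bases in the order of transcription. The 886-base gene (ENSOCUG00000021891, 2188564 to 2191252, minus strand) had 4 exons of 349, 150, 139 and 248 bases. The 750-base gene (2179759 to 2184374, plus strand) had 7 listed exons that merged into 4, of 20, 346, 139 and 245 bases. Thus all 3 genes with 4 merged exons carried a next-to-last exon of exactly 139 bases. The 750-base gene shared one more length with the 554-base gene: inside its 346-base exon a second listed exon of 95 bases, from 2180209 to 2180303, directly preceded the 139-base exon.

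The gene left outside by its counts had the same feature. This 492-base gene (2164419 to 2168750, minus strand) had 3 exons of 190, 139 and 163 bases and lay between the 554-base and the 750-base gene. The last intron was also alike in size: 358 bases in the 554-base gene, 420 in the 492-base gene, and 444 in both the 750-base and the 886-base gene. The intron before the 139-base exon was long in 3 of the 4 genes, at 2627, 3420 and 3243 bases, and only 296 bases in the 886-base gene.

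**Figure D1:**
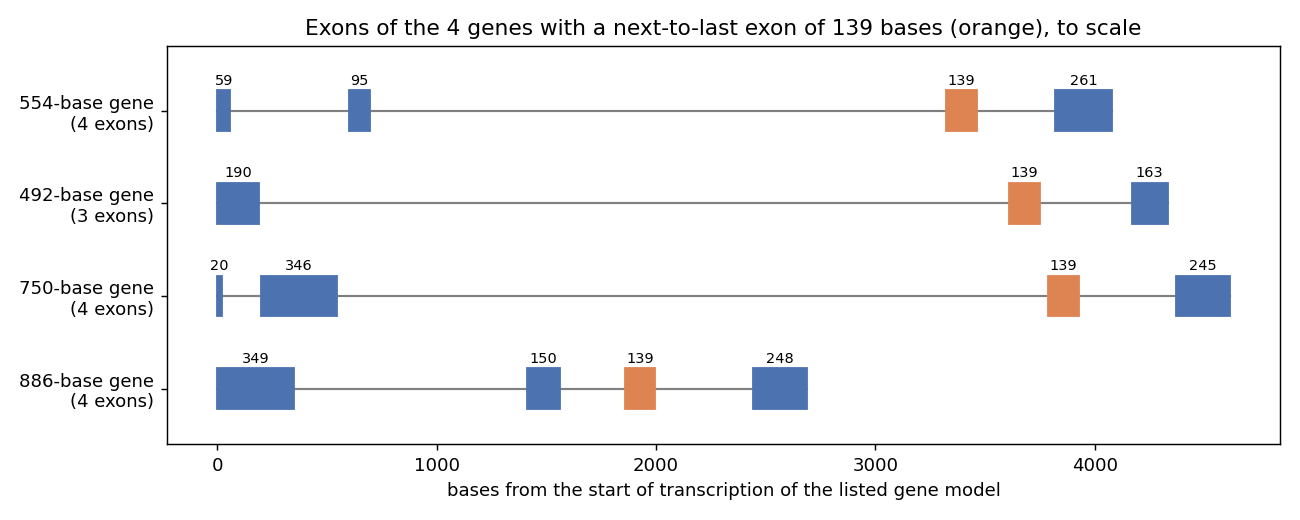
Exons (boxes, with their lengths in bases) and introns (lines) of the 4 genes of the interval whose next-to-last exon measured 139 bases, drawn to scale from the start of each listed gene model. The 139-base exon, in orange, is followed in each gene by an intron of 358 to 444 bases.

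Any single length is uncommon for a next-to-last exon: among 17810 listed genes with 3 or more merged exons, the most frequent length, 93 bases, occurred in 147. A length of 139 bases, which was picked from the genes of the interval themselves, occurred in 78 (0.438%), 4 of them in the interval. Among the 1849 genes with 4 merged exons there were 9 (0.487%), 3 of them here. With a last intron of 300 to 500 bases as well, a range set after the values were seen, 8 genes remained, 4 of them in the interval. Of the 74 genes with such an exon elsewhere, 48 were tested for a difference between the groups and 0 were called higher or lower with PRP by edgeR at an adjusted p under 0.05, where 0.535% of all tested genes were higher and 0.323% lower. At an unadjusted p under 0.05 in edgeR, 2 of the 48 were higher and 4 lower, beside 5.31% and 8.01% of all tested genes. After adjustment DESeq2 called 1 higher and 1 lower, beside 2.41% and 3.32%, and limma-voom called 0 in either direction, beside 0.724% and 0.354%. With 48 genes, these counts are too small to set such genes apart from all tested genes.

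The other 4 genes of the interval had neither feature. The 1477-base gene (1737136 to 1739389, plus strand) had 3 exons of 642, 79 and 756 bases and lay at the far left end. The 1536-base gene (1754969 to 1786122, plus strand) had 6 exons. The 1357-base gene (1801177 to 2048577, minus strand) spread 11 merged exons over 247.4 kb, and the 2905-base gene (2061059 to 2125738, minus strand) had 19 over 64.68 kb. These 3 longer genes stood between the 1477-base gene and the group of short genes. Gaps between neighbouring genes of the interval ranged from 4.2 to 25.1 kb, and 0 listed genes overlapped any of them.

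The 554-base gene dominated the interval in every library. It had 7185 and 17723 reads in noPRP replicates 1 and 2, and 1968513 and 1300935 reads in PRP replicates 1 and 2. Its level in CPM, reads scaled to a common library size with TMM factors (a trimmed mean of log ratios between libraries), was 327.0 and 779.9 without PRP and 81881 and 64875 with PRP. Both PRP libraries thus stood far above both noPRP libraries, while the noPRP libraries differed from each other more, in proportion, than the PRP libraries did. By read count it ranked 448 and 142 among all genes without PRP and 1 in both libraries with PRP. It was thus already well expressed without PRP: per kilobase of exon it ranked 141 and 25 in the noPRP libraries. The fitted log2 fold change was 7.05 (SE 1.18), about 133-fold. Without noPRP replicate 2 this value was 7.80, and without noPRP replicate 1 it was 6.57.

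The 886-base gene went from a low to a high level. It had 62 and 100 reads without PRP and 50584 and 25491 with PRP, or 2.82 and 4.40 CPM against 2104 and 1271 CPM. Its rank by read count was 9494 and 8745 in noPRP and 47 and 138 in PRP. The groups did not overlap, and the fitted log2 fold change was 8.87 (SE 1.11).

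The 750-base gene was near the limit of detection without PRP. It had 0 and 5 reads in noPRP and 1138 and 592 in PRP, which is 0 and 0.22 CPM against 47.3 and 29.5 CPM. A count of 0 in noPRP replicate 1 allows up to 0.137 CPM (3 counts; counting error only). The fitted log2 fold change was 8.36 (SE 1.32), and it was 7.42 without noPRP replicate 1. Without noPRP replicate 2 only a library at 0 was left, and the level with PRP was at least 287-fold higher than a floor of 3 counts.

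The 492-base gene, which has the same 139-base exon, had 0 reads in both noPRP libraries and 1 read in each PRP library. This is under the 3 counts taken as the floor, so no difference was detectable at this depth. The short genes of the interval therefore spanned the whole range with PRP, from 1 read to 1968513 reads in PRP replicate 1.

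**Figure D2:**
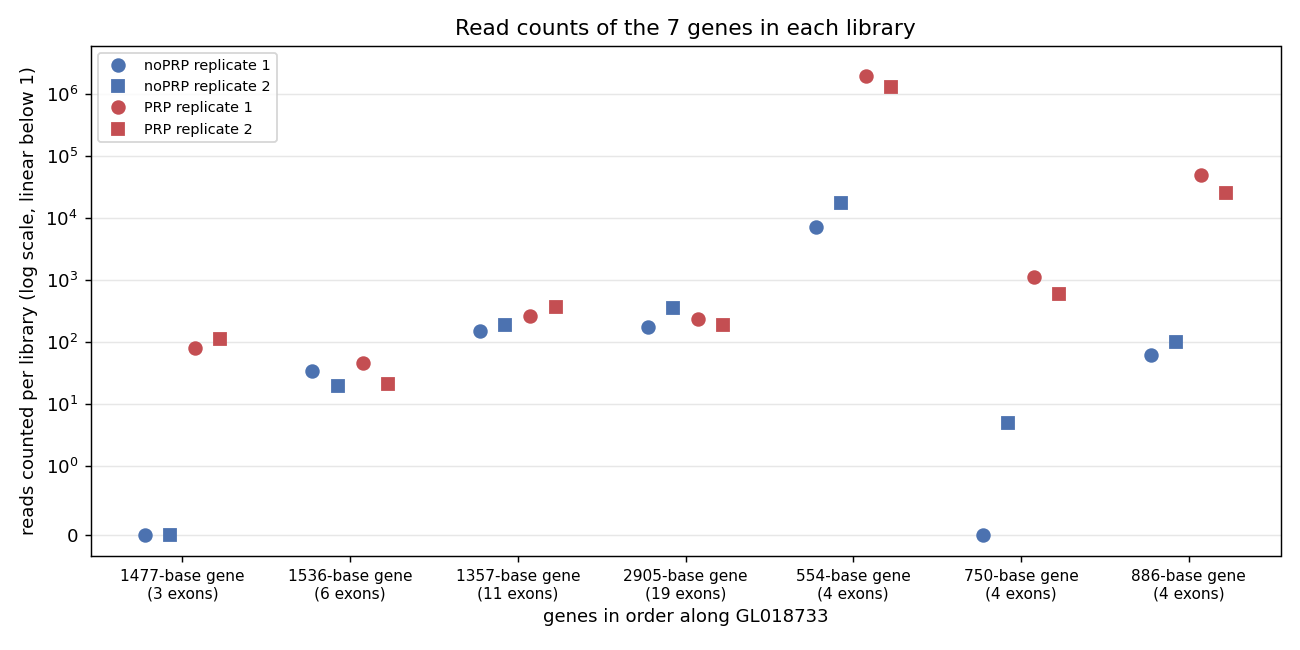
Reads counted for each of the 7 genes in each library, in order along GL018733 (log axis, linear below 1; circles replicate 1, squares replicate 2; blue noPRP, red PRP). The 554-base, 750-base and 886-base genes and the 1477-base gene have both red points far above both blue points, while red and blue lie close for the 3 genes between them.

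Among the genes without a 139-base exon, the 1477-base gene alone went from no reads to a clear signal. No read fell on it in either noPRP library, and 80 and 115 reads did with PRP, or 3.33 and 5.74 CPM with PRP. This was at least 65.9-fold higher, taking 3 counts summed over the noPRP libraries as the floor. The bound was 49.6 without PRP replicate 2 and 85.5 without PRP replicate 1. It was 33.5 and 32.4 without noPRP replicate 1 or 2, where only the depth behind the floor changes.

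The 3 genes in the middle were not called. The 1357-base gene had 150 and 188 reads without PRP and 262 and 376 with PRP, or 6.83 and 8.27 CPM against 10.9 and 18.8 CPM. Its groups did not overlap, but the log2 fold change of 0.97 was close to its standard error of 0.83. The 2905-base gene had 179 and 359 reads in noPRP and 238 and 187 in PRP, with overlapping groups in CPM and a log2 fold change of −0.32 (SE 0.83). The 1536-base gene had 34 and 20 reads in noPRP and 46 and 21 in PRP, also overlapping, with a log2 fold change of 0.29 (SE 0.94). Removing 1 library turned the sign of the last 2 genes: without noPRP replicate 2 the values were 0.23 and −0.07, and without PRP replicate 1 that of the 1536-base gene was −0.235.

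Over the whole interval, 4 of the 7 genes were called higher and 0 lower with PRP, with 0 lower also at an unadjusted p under 0.05 and by DESeq2 and limma-voom (edgeR quasi-likelihood test, Benjamini-Hochberg adjusted p under 0.05 over 12707 tested genes). Over all tested genes 0.535% were called higher and 0.323% lower. Because the interval was drawn around such calls, nothing is read from this difference. Both PRP libraries exceeded both noPRP libraries for 5 of the 7 genes, against 23.8% of all tested genes. All 7 passed the filter on low counts, 2 of them (the 1477-base and the 750-base gene) only through the PRP libraries. The median fitted log2 fold change was 7.05 over the 7 genes and 0.035 over all tested genes.

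**Figure D3:**
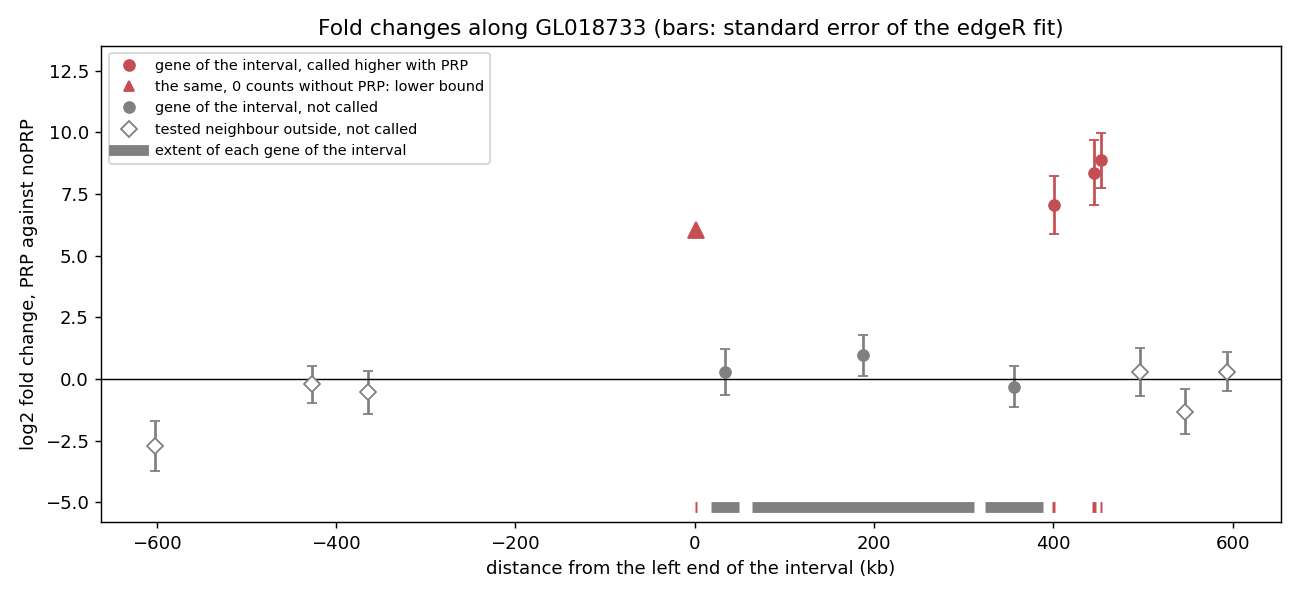
Log2 fold change with PRP of the 7 genes and of the 3 nearest tested genes on each side, by distance in kb from the left end of the interval (bars, standard error of the edgeR fit; triangle, lower bound for the gene at 0 without PRP; strips at the foot, extent of the 7 genes). The 3 called genes with a 139-base exon lie together at the right end, at 7.05 to 8.87, and the 1477-base gene stands alone at the left end.

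Neighbours outside the interval were not called. Of the 3 nearest tested genes on each side, 0 were called in either direction by edgeR, DESeq2 or limma-voom. One gene, at 1092706, passed an unadjusted p under 0.05 in edgeR. Log2 fold changes of the 6 ranged from −2.71 to 0.30. Over all tested genes, edgeR called 0.535% higher and 0.323% lower, DESeq2 2.41% and 3.32%, and limma-voom 0.724% and 0.354%. At an unadjusted p under 0.05 in edgeR, 5.31% were higher and 8.01% lower. With 6 genes, these counts cannot set the neighbours apart from all tested genes. The interval was drawn around nearby calls and ends at a called gene on each side. Nothing is therefore read from the absence of higher calls beside it. On the right, the next gene (2208094 to 2259155) had 281 and 1060 reads in noPRP and 1524 and 188 in PRP, so its replicates differed more than its groups. The gene at 2324374 to 2336699 was abundant in all libraries, at 1458 and 1483 CPM in noPRP and 2025 and 1606 CPM in PRP. On the left, the gene at 1092706 to 1178092 had 34.8 and 182.9 CPM in noPRP and 27.7 and 5.59 CPM in PRP.

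Of all reads, the 7 genes took 0.0379% in noPRP replicate 1 (95% Wilson interval 0.0370 to 0.0387) and 0.0878% in noPRP replicate 2 (0.0866 to 0.0891). Their share with PRP was 8.40% (8.387 to 8.409) in replicate 1 and 5.57% (5.563 to 5.581) in replicate 2. The mean share was 0.0628% ± 0.035 without and 6.98% ± 2.0 with PRP (SD, n = 2 each). Nearly all of this came from the 3 genes with 4 merged exons. The 4 genes without a 139-base exon together held 0.00181% and 0.00271% of the noPRP reads and 0.00260% and 0.00293% of the PRP reads. The shares of these 4 genes thus overlapped between the groups, even though 1 of them was detected only with PRP.

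The proportions among the 3 genes with 4 merged exons need no scaling between libraries. The 886-base gene made up 0.856% (95% Wilson interval 0.668 to 1.10) and 0.561% (0.461 to 0.682) of their summed reads in the noPRP libraries. With PRP it made up 2.50% (2.482 to 2.526) and 1.92% (1.898 to 1.944), so its share was higher in both PRP libraries than in both noPRP libraries. The 554-base gene correspondingly made up 99.1% and 99.4% without PRP and 97.44% and 98.03% with PRP. The 750-base gene made up 0.0281% (0.0120 to 0.0656) in noPRP replicate 2. For its 0 reads in noPRP replicate 1 the upper Wilson limit was 0.0530%, and 3 counts would be 0.0414%. With PRP its share was 0.0563% (0.0532 to 0.0597) and 0.0446% (0.0412 to 0.0484), both within the interval of noPRP replicate 2. Both PRP shares thus exceeded both noPRP shares, which rested on 0 and 5 reads. Only PRP replicate 1 lay above the upper Wilson limit of noPRP replicate 1, so the groups were not separated beyond counting error. Relative to the 886-base gene alone, the 750-base gene held nearly the same share of their joint reads in both PRP libraries, 2.20% (2.077 to 2.33) and 2.27% (2.096 to 2.458). Without PRP the share was 0% in replicate 1 (0 of 62 reads, upper Wilson limit 5.83) and 4.76% in replicate 2 (2.05 to 10.7, from 105 reads), so the noPRP libraries lay on both sides of the PRP libraries with wide intervals.

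**Figure D4:**
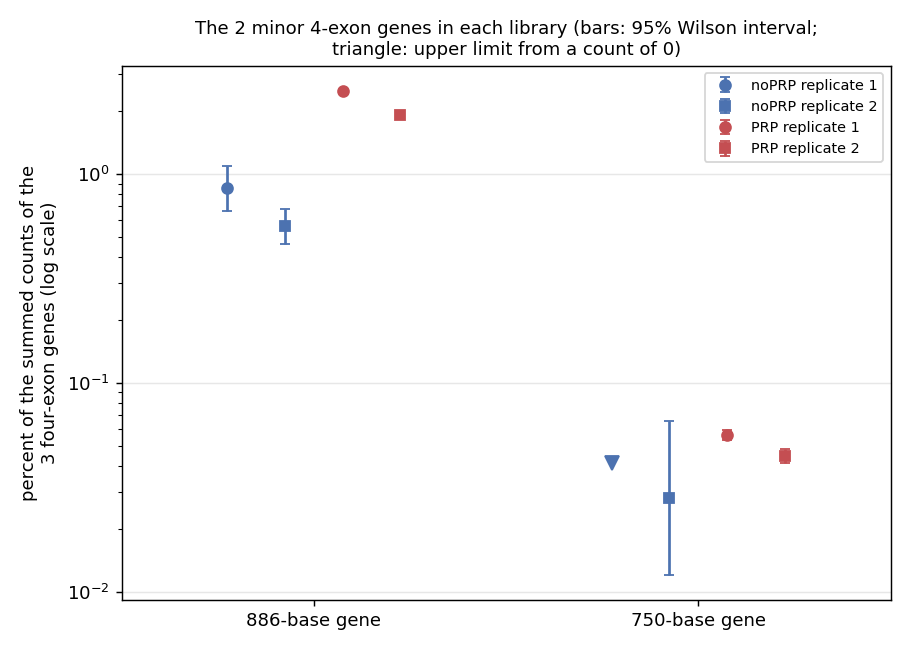
Share of the 886-base and the 750-base gene in the summed reads of the 3 genes with 4 merged exons, in each library (log axis). Bars give the 95% Wilson interval for counting error, and the triangle marks 3 counts in place of a count of 0. The 886-base gene lies at 0.561% to 0.856% without PRP and at 1.92% to 2.50% with PRP.

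Levels per kilobase of exon allow the genes to be ordered. Without PRP the 554-base gene stood at 590.2 and 1408 CPM per kilobase. The 1357-base gene (5.03 and 6.10), the 2905-base gene (2.80 and 5.44) and the 886-base gene (3.18 and 4.97) followed in CPM per kilobase. Of these, the 2905-base gene overlapped both others. The 1536-base gene was at 1.01 and 0.573 CPM per kilobase, the 750-base gene at 0 and 0.293, and the 1477-base gene at 0 in both libraries. With PRP the 3 genes with 4 merged exons led the order without overlap. The 554-base gene was at 147799 and 117104 CPM per kilobase, the 886-base gene at 2375 and 1435, and the 750-base gene at 63.1 and 39.4. Below them the 1357-base gene was at 8.03 and 13.8 CPM per kilobase. The 2905-base gene (3.41 and 3.21) and the 1477-base gene (2.25 and 3.88) overlapped, and the 1536-base gene came last at 1.25 and 0.682 CPM per kilobase.

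Differences within a group enter the calls that set the interval, through the standard error, so they too are descriptions. Between the PRP libraries, replicate 1 exceeded replicate 2 by 0.34, 0.68 and 0.73 on the log2 CPM scale for the 554-base, 750-base and 886-base genes. The 1477-base gene went the other way, with a difference of −0.77. The median absolute difference between the PRP libraries was 0.87 over all tested genes. Between the noPRP libraries, the 554-base gene differed by −1.25, the 750-base gene by −1.78 (from 0 and 5 reads) and the 886-base gene by −0.62 (replicate 1 minus replicate 2, log2 CPM), beside a median absolute difference of 0.98 over all tested genes.

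The genes most like the 554-base gene were sought by distance between log2 CPM profiles over the 4 libraries, each centred on its own mean. Among the other called genes of the interval, the 750-base gene was at a distance of 0.777, the 886-base gene at 1.73 and the 1477-base gene at 1.94. The log2 CPM values include a small added count (prior count 2). The distances of the 750-base and 1477-base genes, with 5 or fewer reads in each noPRP library, therefore depend partly on it. Outside the interval the nearest was a gene of 6 merged exons on chromosome 5 (27498985 to 27502985), at a distance of 0.867, with 280 and 319 reads in noPRP and 48786 and 25592 in PRP. Next came a pair of 3-exon genes on chromosome 13, at 39032053 to 39034219 (distance 0.879) and 39004122 to 39005042 (distance 0.881), with log2 fold changes of 7.02 and 7.09. The fourth was a gene of 38 merged exons on GL018752 (912089 to 943619, distance 0.993) with a log2 fold change of 7.87. The fifth, on chromosome 13 at 48903976 to 48916352 (distance 1.16), had 1 read in each noPRP library and 296 and 363 in the PRP libraries. All 5 were themselves called higher with PRP, and with 4 libraries in 2 groups the distance is set mainly by the step between the groups.

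Features of the counting program bear on these values. By the defaults of the counting program, reads that align to more than 1 place are dropped, so genes with near-identical stretches are undercounted. How alike the sequences of the 4 genes with a 139-base exon are was not tested, so the split of reads among them is uncertain. Whether reads from the most abundant of these genes were counted for the others was not tested either. Counts of the less abundant genes could therefore be too high as well as too low. Whether the 750-base gene rose with PRP separately from the most abundant gene was not tested. Reads were also counted without regard to strand, and the 750-base gene lies on the opposite strand to its short neighbours, though 0 listed genes overlap it.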

How the data were processed

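RNA-seq libraries of rabbit tendon stem/progenitor cells (2 noPRP, 2 PRP) were used. The authors deposited raw read counts per gene; alignment with STAR 2.7.2a to OryCun2.0 and counting with featureCounts 1.6.5 are recorded per the submitters' processing notes. Per the file headers, exons of Ensembl release 98 were summed by gene with no option for strand, read pairs or reads with several alignments. The table of the whole series equalled the library tables (0 columns differed).

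Overlapping exons were merged per gene. Counts were tested with edgeR 4.0.16 in R 4.3.3 (filterByExpr, TMM with factors of 0.842 to 1.09, glmQLFit and glmQLFTest, group as the only term, Benjamini-Hochberg over 12707 genes). Standard errors derive from the F statistic, with a median of 11.4 prior degrees of freedom. The steps were tested on simulated data. The simulated folds were smaller than the fitted folds of the called genes of the interval, so changes of that size were not covered. All genes of the interval, the 3 nearest tested genes on each side and the 5 most alike genes were named. The interval and the named genes were chosen with earlier results of these data known. Lists of pathway and marker genes could not be read without symbols. Alternatives were DESeq2 1.42.0, limma-voom (limma 3.58.1), other scalings and filters, a replicate block and each library left out.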

Additional observations from a re-analysis of the deposited data

How the results depend on the processing

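The count of 4 genes called higher with PRP was the same in all 13 alternative fits, among them upper-quartile normalization, library sizes without the 7 genes, no filter, DESeq2, limma-voom and each library left out. It was 4 with the replicate block and 4 with a crossed replicate block, which was added after the data were examined because deviations of same-numbered libraries from their group means had a correlation of −0.63; the labels do not say that numbers pair libraries. The stricter filter dropped the 1536-base gene, so 6 were tested. Over all genes the calls varied more: 68 higher and 41 lower in the main analysis, 46 and 14 with upper-quartile normalization, 230 and 335 without a filter, 306 and 422 with DESeq2, 46 and 11 with the block, 1652 and 1936 with the crossed block, and 138 and 433 without noPRP replicate 1. The fitted log2 fold change over the alternatives was 6.57 to 7.80 for the 554-base gene and 8.45 to 9.24 for the 886-base gene. Leaving out each library in turn gave −0.235 to 0.76 for the 1536-base gene (0.29 with all libraries) and −0.71 to 0.23 for the 2905-base gene (−0.32 with all). Leaving out 1 library gave a summed share of 0.0379% to 0.0878% (noPRP) and 5.57% to 8.40% (PRP). With the signs kept by construction for genes whose groups do not overlap, stable calls add no support. With 2 libraries per group, the standard errors of the 3 middle genes were 0.83 to 0.94 on the log2 scale, which limits what can be said of them.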
